A study of Mus musculus with 3 samples.

Results

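The cell cycle genes described here were 44 genes chosen by name, 17 of S phase and 27 of G2 and mitosis (G2/M), out of 56980 genes in the feature tables. They were chosen as markers of dividing cells, but with earlier results of these data known. Spleen cells of wild-type (WT) mice had been put through 10x Genomics single-cell sequencing of RNA, with 3 libraries and so 1 for each group. The control library had no irradiation. The IR library had 8.5 Gy of irradiation and what the labels call "colvent control", and the IR_HSO library had the same 8.5 Gy and HSO, hemp seed oil per the series title. The labels do not give the time after irradiation, the dose or route of the oil, the age, the number of mice or whether mice were pooled. With 1 library per group no difference could be tested, and every interval below, at 95%, covers counting error alone.

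A lymphocyte that divides first licenses and copies its DNA in S phase, then condenses and separates its chromosomes in G2 and mitosis. Genes for the replication machinery are transcribed from the end of G1 under E2F transcription factors, and genes for mitosis follow later, in part through CCAAT boxes bound by NF-Y and a cell cycle homology region. Resting splenic lymphocytes express most of these genes little, and ionising radiation is known to halt cycling cells through p53 and its target Cdkn1a (p21).

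The promoter bases show how the S phase and the G2/M genes differ in sequence. RefSeq promoters of build GRCm38.p6 matched 14 of the 17 S phase genes and 23 of the 27 G2/M genes, while the count files use GRCm39. The 250 bases before each start were searched on both strands for the box CCAAT and for the letters of the cell cycle homology region, which were TTTGAA with the variant TTTAAA. They were also searched for the E2F letters, which were TTGGCGC with the variant TTCGCGC and the further variant TTCCCGC. The reverse complement of TTGGCGC can share 4 bases with CCAAT. Shown first are the 150 bases before the start of Mcm6, a replicative helicase subunit, Cdc6, a loader of that helicase, and Rrm1, the large subunit of ribonucleotide reductase. Capitals mark matches of any of the 3 motifs, and each run is read 5′ to 3′ on the gene's strand.
Mcm6: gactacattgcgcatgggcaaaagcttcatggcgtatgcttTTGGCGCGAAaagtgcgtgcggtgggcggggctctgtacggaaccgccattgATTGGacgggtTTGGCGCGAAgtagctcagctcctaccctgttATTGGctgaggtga
Cdc6: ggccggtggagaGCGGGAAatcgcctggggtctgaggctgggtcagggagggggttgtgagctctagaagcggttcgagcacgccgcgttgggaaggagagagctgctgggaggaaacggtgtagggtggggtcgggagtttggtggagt
Rrm1: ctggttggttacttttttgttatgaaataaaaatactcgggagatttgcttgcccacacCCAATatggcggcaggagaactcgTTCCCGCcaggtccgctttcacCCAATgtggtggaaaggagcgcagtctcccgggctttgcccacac
The Mcm6 bases lie at chr1:128359706-128359855 (minus strand), those of Cdc6 at chr11:98908001-98908150 (plus strand) and those of Rrm1 at chr7:102441545-102441694 (plus strand). Within these bases Mcm6 held 4 E2F matches, Cdc6 1 and Rrm1 1, and none of them held a homology region match. The 4 matches of Mcm6 overlapped in pairs and so lay in 2 runs of capitals. Mcm6, Cdc6 and Rrm1 held 2, 0 and 2 CCAAT matches. Shown next are Top2a, the enzyme that untangles replicated DNA, Cdk1, the kinase that drives mitosis, and Ccnb1, which encodes its partner cyclin B1.
Top2a: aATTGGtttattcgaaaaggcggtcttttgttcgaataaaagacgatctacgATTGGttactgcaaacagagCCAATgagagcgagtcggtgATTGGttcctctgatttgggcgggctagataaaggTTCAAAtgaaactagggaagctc
Cdk1: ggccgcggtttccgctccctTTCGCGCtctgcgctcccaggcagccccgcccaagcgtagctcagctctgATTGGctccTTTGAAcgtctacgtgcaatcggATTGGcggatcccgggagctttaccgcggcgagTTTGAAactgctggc
Ccnb1: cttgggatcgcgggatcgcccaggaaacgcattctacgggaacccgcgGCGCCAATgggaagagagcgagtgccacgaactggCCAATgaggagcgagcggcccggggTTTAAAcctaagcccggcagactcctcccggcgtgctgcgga
These bases lie at chr11:99024190-99024339, chr10:69352913-69353062 and chr13:100786487-100786636, all on the minus strand. Top2a held 4 CCAAT matches and 1 homology region match, Cdk1 2 and 2, and Ccnb1 2 and 1. Their E2F matches were 0 in Top2a, 1 in Cdk1 and 1 in Ccnb1. Over all 250 bases CCAAT was found in 91.7% of 24 G2/M promoters, 75% of 16 S phase promoters and 33.8% of all 32851 promoters. The homology region letters were found in 62.5% of G2/M, 18.8% of S phase and 25.2% of all promoters. The E2F letters were found in 16.7%, 50% and 6.69%. A match describes the letters in the window and does not show a bound site.

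The libraries held 45636807 to 50836313 unique molecular identifiers (UMIs), and 9163 control, 12866 IR and 10608 IR_HSO cells had at least 500 UMIs and under 10% mitochondrial UMIs. Pairs of libraries shared 26 to 45 of these cell barcodes. A T cell had at least 2 UMIs of Cd3d, Cd3e and Cd3g together, an NK cell at least 1 Ncr1 UMI and no Cd3 UMI, and a B gate cell at least 2 UMIs of Cd79a and Cd79b. The T gate held 3731 control, 8212 IR and 6982 IR_HSO cells, with median UMI numbers of 5479, 3587 and 3569. All 8 T cell markers were present in the T gate of each library, at a summed 5040, 5114 and 4110 CPM (UMIs of the named genes relative to all UMIs of the gate, scaled to the same total in every gate and library). Summed markers of other cells in the T gate also differed between libraries. B cell markers stood at 634, 68.9 and 47.0 CPM, plasma cell markers at 591, 1947 and 1596 CPM, erythroid markers at 597, 55.1 and 62.0 CPM, and pancreatic enzyme markers at 1.49, 2341 and 902 CPM, with 11 of the 12 pancreatic markers at 0 in control T cells. The part of these markers in the results below was not tested.

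In T cells the S phase genes were highest in the IR library. Their summed level was 447 CPM [438, 455] in control, 751 CPM [742, 760] in IR and 454 CPM [447, 462] in IR_HSO. All 17 were highest in IR, and 14 of 17 were above control by 1.5-fold or more in IR on the log2(CPM + 1) scale, against 10.5% of all 10367 genes measured, while none was as much lower, against 3.86% of all genes. Their median log2 ratio was 0.71, beside 0.10 over all genes. A gene was called measured with at least 5 CPM in either library and 10 UMIs in both together. A gene under 5 CPM in control could thus be measured only through IR, and could then not be called lower. In T cells this held for Cdc6, Ccne2 and the G2/M gene Bub1. For IR_HSO over IR, a gene under 5 CPM in IR_HSO likewise could not be called higher. Such sums over a gate cannot tell more cycling cells from more RNA per cell.

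The minichromosome maintenance genes Mcm2 to Mcm7 encode the 6 subunits of the replicative helicase, and all of them were highest in IR. Values without a named library are given in the order control, IR, IR_HSO. Mcm2 stood at 26.1 CPM in control, 43.8 CPM in IR and 31.3 CPM in IR_HSO, and Mcm3 at 38.5, 71.6 and 44.1 CPM. Mcm4 stood at 40.2, 66.4 and 47.0 CPM, and Mcm5 at 21.0, 41.8 and 24.4 CPM. Mcm6 stood at 44.4, 70.5 and 52.5 CPM, and Mcm7 at 34.6, 59.2 and 34.3 CPM. The helicase genes were 1.59-fold (Mcm6) [1.48, 1.71] to 1.99-fold (Mcm5) [1.79, 2.21] above control in IR. In IR_HSO they were 1.34-fold (Mcm6) [1.26, 1.43] to 1.72-fold (Mcm7) [1.60, 1.86] lower than in IR, so that the 6 subunits did not move to the same extent.

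Among the other replication genes the differences were wider. Cdc6 (ENSMUSG00000017499) stood at 2.58 CPM (59 UMIs) in control, 9.07 CPM (324 UMIs) in IR and 3.26 CPM (98 UMIs) in IR_HSO, and was 3.52-fold [2.66, 4.73] above control in IR. Tyms, thymidylate synthase, stood at 14.2, 36.2 and 19.7 CPM and was 2.55-fold [2.25, 2.89] higher in IR. Both genes thus had IR far above the other 2 libraries, with IR_HSO above control. Pcna (ENSMUSG00000027342), the sliding clamp of DNA polymerase and also a p53 target, stood at 96.7, 148 and 91.6 CPM, 1.53-fold [1.45, 1.61] above control in IR. Rrm2, the small subunit of ribonucleotide reductase, stood at 13.5, 22.3 and 7.26 CPM, and was 3.08-fold [2.65, 3.59] lower in IR_HSO than in IR. Its level in IR_HSO was also below control. Cdt1, the licensing factor that is destroyed in S phase, differed least among the S phase genes between IR_HSO and IR, at 18.6, 26.1 and 20.9 CPM. The remaining S phase genes, Pclaf, Rrm1, Gins2, Ccne1, Ccne2 and Uhrf1, had IR over control ratios from 1.36-fold (Ccne1) to 2.26-fold (Uhrf1).

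The G2/M genes were also highest in IR as a sum, but less evenly, and their sum in IR_HSO lay below control. Their summed T cell level was 968 CPM [955, 981] in control, 1449 CPM [1436, 1461] in IR and 743 CPM [733, 753] in IR_HSO. Of 26 measured, 12 were above control by 1.5-fold or more in IR, against 10.5% of all genes, and none was lower, against 3.86%, with a median log2 ratio of 0.52. Aurka, the kinase of spindle poles, stayed under the limit of 5 CPM, at 4.50, 4.51 and 2.26 CPM. Of all 27, 24 were highest in IR, while Ccnb1, Plk1 and Cenpa were highest in control.

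Mki67 (ENSMUSG00000031004), a coat protein of mitotic chromosomes and the usual marker of dividing cells, stood at 76.2 CPM (1745 UMIs) in control, 123 CPM (4387) in IR and 61.7 CPM (1854) in IR_HSO. It was 1.61-fold [1.52, 1.71] above control in IR, and 1.99-fold [1.89, 2.10] lower in IR_HSO than in IR. Top2a (ENSMUSG00000020914) stood at 55.5, 138 and 52.1 CPM, 2.49-fold [2.34, 2.65] higher in IR. Stmn1 (ENSMUSG00000028832), which destabilises microtubules, stood at 75.5, 202 and 79.6 CPM, 2.68-fold [2.54, 2.83] higher in IR. For Top2a and Stmn1 control and IR_HSO lay close together and IR stood apart. Cdk1 stood at 8.87, 16.9 and 6.49 CPM, and Hmgb2, a chromatin protein that is also abundant outside mitosis, at 389, 466 and 290 CPM. Cenpf, a kinetochore protein of late G2, stood at 23.6, 48.7 and 17.1 CPM, and Ube2c, the ubiquitin-conjugating enzyme of the anaphase-promoting complex, at 29.96, 40.2 and 13.9 CPM. Both were among the members furthest below IR in IR_HSO, Cenpf by a factor of 2.85 [2.58, 3.15] and Ube2c by a factor of 2.90 [2.59, 3.24].

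The measured members with the lowest ratios of IR over control were Cenpa, Ccnb1, Plk1 and Kif23. Ccnb1 (ENSMUSG00000041431) stood at 6.33, 5.57 and 2.90 CPM, with a ratio of 0.88 [0.71, 1.10] for IR over control. Plk1, a kinase of mitotic entry and exit, stood at 6.86, 6.58 and 3.10 CPM, with a ratio of 0.96 [0.78, 1.18]. Cenpa, the centromeric histone H3 variant, stood at 71.7, 63.3 and 55.7 CPM, and Kif23, a kinesin of cytokinesis, at 17.8, 18.6 and 14.0 CPM. The interval of Cenpa, a ratio of 0.88 [0.83, 0.94], lay below 1, while those of Ccnb1, Plk1 and Kif23 spanned 1. Cenpa and Kif23 also differed least of the G2/M genes between IR_HSO and IR. The remaining G2/M genes were those of cyclins and their partners (Ccna2, Ccnb2, Cks1b, Cks2), the spindle checkpoint and anaphase (Bub1, Bub1b, Cdc20), the chromosomal passenger complex (Aurkb, Birc5), and spindle or kinetochore proteins (Tpx2, Kif11, Nusap1, Prc1, Hmmr, Cenpe). Their folds of IR over control ran from 1.13 (Cks2) to 2.18 (Nusap1), and they were 1.80-fold (Cdc20) to 2.66-fold (Tpx2) lower in IR_HSO than in IR.

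**Figure D1:**
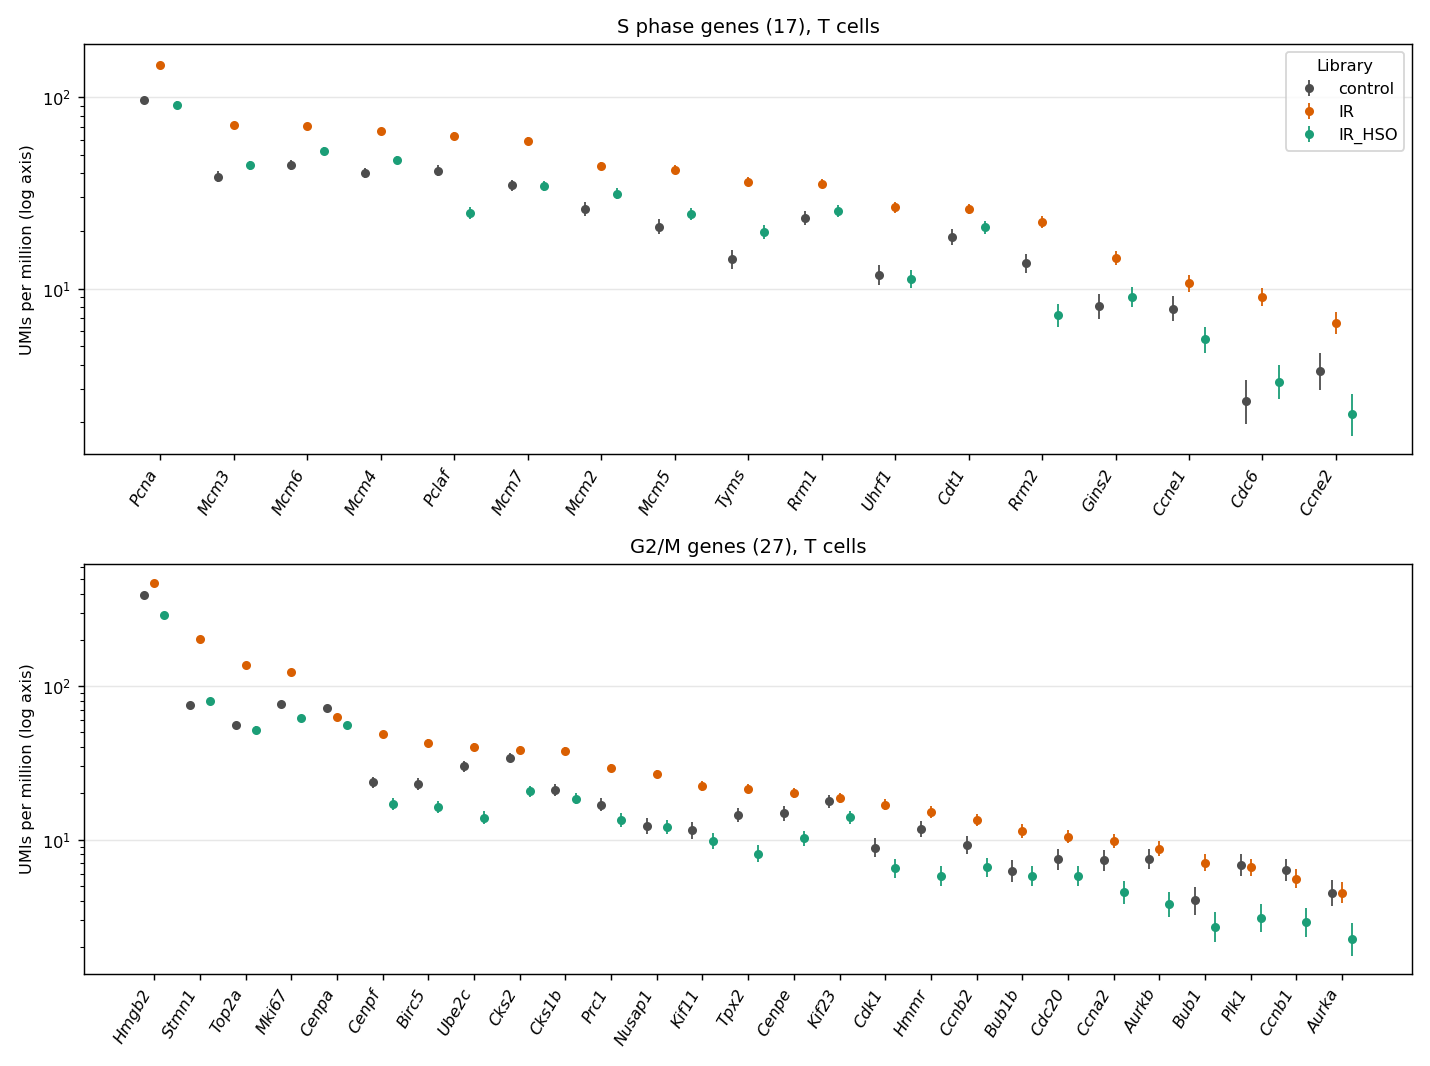
Level of each S phase gene (top) and G2/M gene (bottom) in T cells, in CPM on a log axis, with 1 point per library and its exact Poisson interval. All 17 S phase genes and 24 of 27 G2/M genes are highest in the IR library; Ccnb1, Plk1 and Cenpa are highest in control.

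Between IR_HSO and IR, which shares the IR library with the comparison above, 12 of 17 S phase genes and 24 of 26 G2/M genes were at least 1.5-fold lower in IR_HSO, against 4.73% of all 10508 genes. None was higher, against 6.48% of all genes. The median log2 ratios were -0.75 for S phase and -1.01 for G2/M genes, beside 0.04 over all genes. The lowest ratios were those of Rrm2, Ube2c, Cenpf and Top2a, at log2 -1.50, -1.47, -1.46 and -1.39, and the highest those of Cenpa, Cdt1, Kif23 and Mcm6, at -0.18, -0.30, -0.39 and -0.42. Set against control, none of 15 measured S phase genes was higher in IR_HSO and 2 were lower, Rrm2 and Pclaf, a PCNA-binding protein. None of 25 measured G2/M genes was higher and 8 were lower, Ube2c, Plk1, Ccnb1, Hmmr, Ccna2, Aurkb, Tpx2 and Cks2. The lowest ratios of IR_HSO over control were those of Ube2c, Plk1, Ccnb1 and Hmmr, at log2 -1.06, -0.94, -0.91 and -0.91, and the highest those of Tyms, Mcm2, Mcm6 and Mcm4, at 0.45, 0.25, 0.24 and 0.22. Hmmr, which binds hyaluronan and the spindle, stood at 11.8, 15.2 and 5.79 CPM. All measured genes were called higher in 17.2% and lower in 6.31% in that comparison. The median log2 ratio of IR_HSO over control was 0.14 for S phase genes, equal to that of all genes at 0.14, and -0.42 for G2/M genes. IR_HSO lay below control for 7 of 17 S phase and 26 of 27 G2/M genes.

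The control value of the G2/M genes rested in part on few cells. The T cells that also met the B gate were 541 control, 138 IR and 93 IR_HSO cells. The 541 control cells, at a median of 7646 UMIs, held 8742 of the 22166 G2/M UMIs of the control T gate. Of the G2/M UMIs of all control cells, those outside the T gate included, they held 18.0%. T cells with over 20000 UMIs were 38 in control, 25 of them in both gates, and held 40.8% of the G2/M and 29.2% of the S phase UMIs of the control T cells, beside 5.54% of all their UMIs. In IR 55 such cells held 4.26% and 3.98%, and in IR_HSO 39 held 4.05% and 3.91%. Without cells in both gates the summed G2/M level was 742, 1482 and 750 CPM, and that of S phase genes was 398, 766 and 461 CPM. All 17 S phase genes and all 27 G2/M genes were then highest in IR. Then 15 of 17 S phase genes and 21 of 26 G2/M genes were above control by 1.5-fold or more in IR, against 12.2% of all genes, with median log2 ratios of 0.92 and 1.22. Of those called higher, Cdc6, Ccne2, Cdk1, Ccna2, Plk1, Aurkb, Bub1 and Bub1b were under 5 CPM in control and were measured only through IR. Without cells over 20000 UMIs the counts of higher genes were 16 of 17 and 24 of 26, against 12.1%, with medians of 1.17 and 1.64. Where the larger of the Cd3 and Cd79 sums decided the gate of the cells in both, the medians were 0.79 and 0.61, nearer to the 0.71 and 0.52 of all T cells. IR_HSO against IR moved little, with 12 of 17 and 24 of 26 lower without cells in both gates, against 4.8%. IR_HSO was then below control for 4 of 17 S phase and 11 of 27 G2/M genes.

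Individual members differed in how much they moved when cells in both gates were left out. Top2a then stood at 37.7 CPM in control, 140 CPM in IR and 52.0 CPM in IR_HSO, and Mki67 at 44.9, 124 and 60.8 CPM. Ccnb1 stood at 4.09, 5.65 and 2.76 CPM and Plk1 at 3.60, 6.89 and 3.11 CPM, so that IR was above control for both. Cenpa stood at 63.3, 64.6 and 56.9 CPM, with the 3 libraries still close together. Counted per cell and not scaled to the total, all T cells held 2.74, 3.27 and 1.96 S phase UMIs and 5.94, 6.30 and 3.20 G2/M UMIs in control, IR and IR_HSO, at a mean of 6137, 4349 and 4303 UMIs of all genes. On that scale the median log2 ratio of IR over control was 0.24 for S phase and 0.04 for G2/M genes. Over all genes it was -0.38 on that scale, with 4.45% of genes higher and 20.9% lower by 1.5-fold or more.

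To compare cells at equal depth, each cell was thinned to 1000 UMIs and shallower cells were left out, which removed 15 control, 229 IR and 91 IR_HSO T cells. Cells with UMIs of at least 3 S phase genes were 0.861% [0.590, 1.21] of 3716 control T cells, 4.33% [3.90, 4.80] of 7983 IR T cells and 1.52% [1.248, 1.84] of 6891 IR_HSO T cells. Stmn1, Hmgb2, Cks1b and Cks2, which are also expressed outside G2 and mitosis, were set aside for the G2/M count, which left 23 genes. Cells with at least 3 of these were 1.13% [0.816, 1.53], 2.69% [2.35, 3.07] and 1.03% [0.806, 1.30]. The IR intervals lay above those of the other 2 libraries for both lists. Near the limit, cells with exactly 2 S phase genes were 2.93%, 6.01% and 4.15%, and with exactly 3 0.458%, 2.004% and 0.827%. Cells with a UMI of Mki67 or Top2a were 2.88%, 6.29% and 3.72%. Without thinning the shares were 18.8%, 20.1% and 14.2% for S phase genes and 3.24%, 5.25% and 2.66% for G2/M genes. Without cells in both gates the thinned shares were 0.787%, 4.27% and 1.52% for S phase and 0.724%, 2.66% and 1.02% for G2/M genes. No gate held cells known to lack these genes, so no background share could be given.

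Cells with 3 or more S phase genes and fewer than 2 of the 23 G2/M genes were 0.431% [0.246, 0.698] of control, 2.51% [2.17, 2.87] of IR and 0.900% [0.691, 1.15] of IR_HSO thinned T cells. Cells with at least 3 genes of each list were 0.404%, 1.48% and 0.464%. Both kinds of cell were thus more frequent in the IR library.

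**Figure D2:**
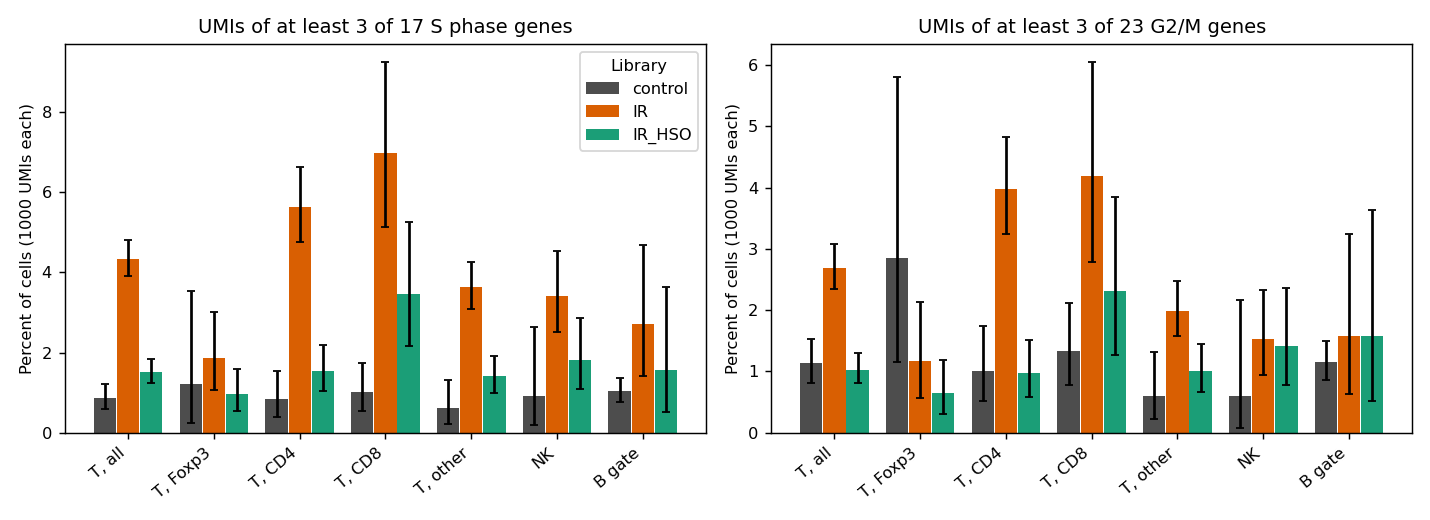
Percent of cells, each thinned to 1000 UMIs, with UMIs of at least 3 of 17 S phase genes (left) or of 23 G2/M genes (right), by gate, with bars for the 3 libraries and exact binomial intervals. In all T cells the IR bars, at 4.33% and 2.69%, stand above those of control and IR_HSO.

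The UMIs of most G2/M genes lay in cells with several members, those of the S phase genes less so. Mki67 had UMIs in 4.50%, 7.82% and 5.53% of T cells in control, IR and IR_HSO, and 93.2%, 94.3% and 85.4% of its UMIs lay in cells with at least 3 other S phase or 3 other G2/M genes. Pcna was detected in more T cells, 35.9%, 31.5% and 25.3%. Multi-gene cells, here 13.05%, 16.8% and 11.1% of T cells, held 35.5%, 59.1% and 39.7% of the Pcna UMIs. Cenpa, with UMIs in 24.6%, 15.01% and 15.5% of T cells, had the lowest such share of the G2/M genes, 41.5%, 50.6% and 32.7%. For the median G2/M gene this share was 92.4%, 92.8% and 83.6%, and for the median S phase gene 59.9%, 73.1% and 52.6%.

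A limit of 10 or more of the 23 G2/M genes in 1 unthinned cell, chosen after the values were seen, was met by 43 control, 216 IR and 76 IR_HSO T cells. Of these, 20, 10 and 3 also met the B gate. These cells held 74.6%, 78.0% and 62.4% of the UMIs of the 23 genes. In all other T cells the 23 genes stood at 119, 165 and 129 CPM, and the S phase genes at 313, 579 and 387 CPM. The choice of these cells used the 23 genes, so their levels in the other cells are a description.

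**Figure D3:**
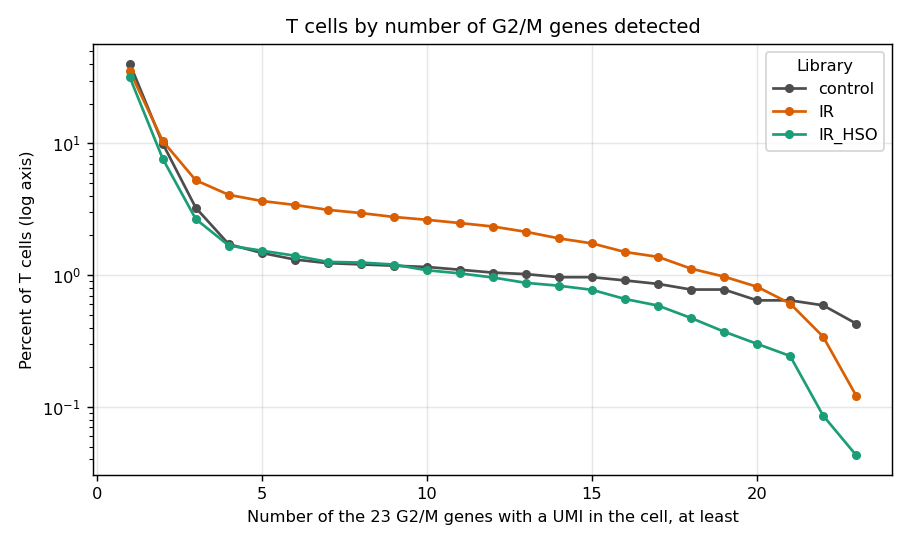
Percent of T cells, on a log axis, with UMIs of at least the given number of the 23 G2/M genes, by library and without thinning. IR stands above IR_HSO at every number from 1 to 23, while control stands above IR at 1 gene (40.3% against 35.5%) and at 21 genes and more (0.643% against 0.609% at 21).

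T cells outside the B gate with UMIs of both Mki67 and Top2a, a pair also chosen after the values were seen, were 34 of 3190 control cells, 344 of 8074 IR cells and 121 of 6889 IR_HSO cells, or 1.07% [0.739, 1.49], 4.26% [3.83, 4.72] and 1.76% [1.46, 2.10]. Their median UMI numbers were 13078, 8120 and 7838. Levels within these cells describe the make-up of cycling cells and not their number, but the values of Mki67 and Top2a took part in the choice. Stmn1 stood at 794 CPM in control, 1740 CPM in IR and 1495 CPM in IR_HSO, 2.19-fold [1.997, 2.41] above control in IR. Tyms stood at 147, 253 and 203 CPM, a ratio of 1.72 [1.38, 2.17], and Pcna at 395, 592 and 464 CPM, a ratio of 1.501 [1.31, 1.72]. In contrast Ccnb1 stood at 92.9, 56.5 and 58.1 CPM, a ratio of 0.61 [0.45, 0.84] for IR over control. Cks2, a cyclin-dependent kinase subunit, stood at 352, 241 and 190 CPM, a ratio of 0.68 [0.59, 0.80]. Cenpf had a ratio of 1.57 [1.36, 1.83], Kif11, a spindle motor, 1.40 [1.14, 1.74], Birc5 1.396 [1.202, 1.63], Prc1 1.34 [1.11, 1.63], Nusap1 1.32 [1.10, 1.60], Cdk1 1.31 [1.03, 1.69] and Cks1b 1.28 [1.06, 1.56]. Within these cells IR was thus above control for members of both lists and below it for Ccnb1 and Cks2. Aurka, Plk1, Aurkb and Hmmr had ratios of 0.68, 0.83, 0.86 and 0.90, with intervals that spanned 1. Pclaf, Rrm1 and Rrm2 had ratios of 1.01, 1.004 and 1.03.

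Between IR_HSO and IR the lowest ratios in these cells included replication and mitosis genes. Rrm2 had a ratio of 0.58 [0.48, 0.70], Ccne1, cyclin E1, 0.60 [0.42, 0.84] and Ube2c 0.69 [0.61, 0.78]. Ccne2, Plk1 and Cdc6 had ratios of 0.65, 0.70 and 0.715. Top2a had 0.73 [0.68, 0.78], but its values took part in the choice of these cells. The highest ratios were those of Kif23, 1.18 [0.99, 1.40], and Ccna2, 1.04 [0.84, 1.29], with intervals that spanned 1. Ccnb1, Ccnb2 and Rrm1 had ratios of 1.03, 1.002 and 1.03.

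**Figure D4:**
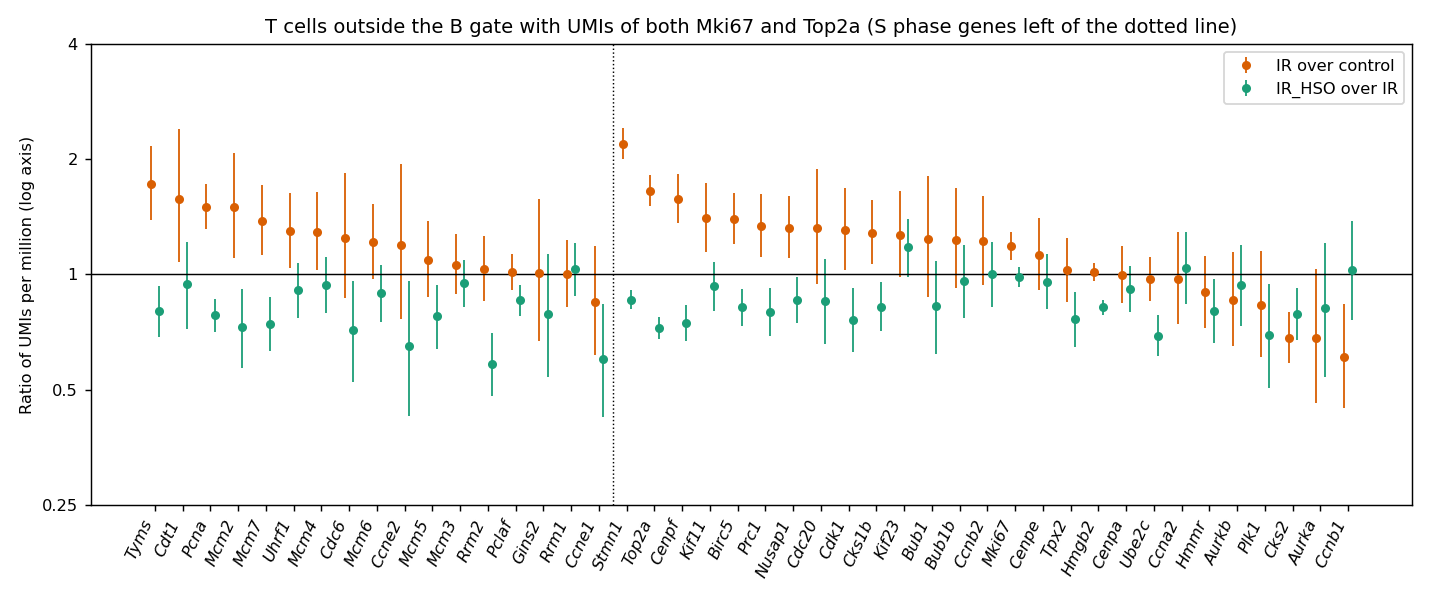
Ratio of each member's level within T cells outside the B gate that held UMIs of both Mki67 and Top2a, on a log axis, for IR over control and IR_HSO over IR, with exact conditional intervals. Stmn1 (2.19) and Tyms (1.72) lie above 1 and Ccnb1 (0.61) and Cks2 (0.68) below 1 for IR over control.

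T cells were split by Foxp3, the factor of regulatory T cells, and without Foxp3 into CD4 cells (Cd4 but no Cd8a or Cd8b1), CD8 cells (Cd8a or Cd8b1 but no Cd4) and other T cells. The split rests on detection of a UMI, which depends on depth. Median UMI numbers were 5508, 3735 and 3765 in Foxp3 cells and 5320, 3810 and 3544 in CD4 cells. They were 6034, 4424 and 4337 in CD8 cells and 4838, 3328 and 3324 in other T cells. Other T cells were 26.9%, 51.1% and 40.8% of T cells. The part of depth in these subsets was not tested. In CD4 T cells (1201 control, 2495 IR and 1970 IR_HSO cells) 16 of 17 S phase and 24 of 26 G2/M genes were above control by 1.5-fold or more in IR, against 11.7% of all genes. Their median log2 ratios were 1.11 and 1.245. Top2a stood there at 46.0 CPM in control, 201 CPM in IR and 65.6 CPM in IR_HSO, and Mki67 at 54.7, 184 and 70.9 CPM. In IR_HSO 16 of 17 S phase and 24 of 26 G2/M genes were lower than in IR, against 6.6% of all genes. CD4 cells thus had IR highest by wide margins for both lists.

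In CD8 T cells (1280, 653 and 613 cells) all 17 S phase and 16 of 27 G2/M genes were above control in IR, against 13.5% of all genes, with medians of 1.09 and 0.80. Without the 184 control, 9 IR and 8 IR_HSO cells in both gates 25 of 27 G2/M genes were higher, against 15.9%, with a median of 1.97. Where the larger of the Cd3 and Cd79 sums decided, the G2/M median was 0.92. Stmn1 stood at 75.6, 286 and 137 CPM. In IR_HSO 8 of 17 S phase and 22 of 27 G2/M genes were lower than in IR, against 7.95%. Thinned CD8 cells with at least 3 S phase genes were 1.02% [0.543, 1.74] in control, 6.99% [5.14, 9.24] in IR and 3.47% [2.16, 5.26] in IR_HSO. The intervals of IR and IR_HSO overlapped slightly. In other T cells (1004, 4193 and 2848 cells) 11 of 17 S phase and 18 of 24 G2/M genes were higher in IR, against 10.8%, and 10 of 17 and 20 of 24 were lower in IR_HSO than in IR, against 4.55%.

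Foxp3 T cells (246, 871 and 1551 cells) had the other direction in G2/M genes, a difference that was not tested. Of 27 G2/M genes 23 were lower in IR than in control, against 10.4% of all genes, and none was higher, with a median log2 ratio of -1.16. Of 17 S phase genes 3 were higher, against 10.5%, and 2 lower, with a median of 0.03. Mki67 stood at 210 CPM (370 UMIs), 73.8 CPM (324) and 45.7 CPM (345), and Hmgb2 at 695, 366 and 248 CPM. In control, however, 7 cells with 10 or more G2/M genes held 86.9% of the UMIs of the 23 genes, and 4 of these 7 were also in the B gate. Without cells in both gates, which were 45 control, 35 IR and 32 IR_HSO cells, 2 of 26 G2/M genes were lower, against 8.45%, and 5 were higher, against 13.5%, with a median of -0.06. The S phase median was then 0.75. Where instead the larger of the Cd3 and Cd79 sums decided, the G2/M median was -1.23 and the S phase median 0.02, so that the result turned on how cells in both gates were treated. In IR_HSO 20 of 24 G2/M and 6 of 16 S phase genes were lower than in IR, against 5.58%, and 21 of 24 and 6 of 16 were lower without cells in both gates.

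**Figure D5:**
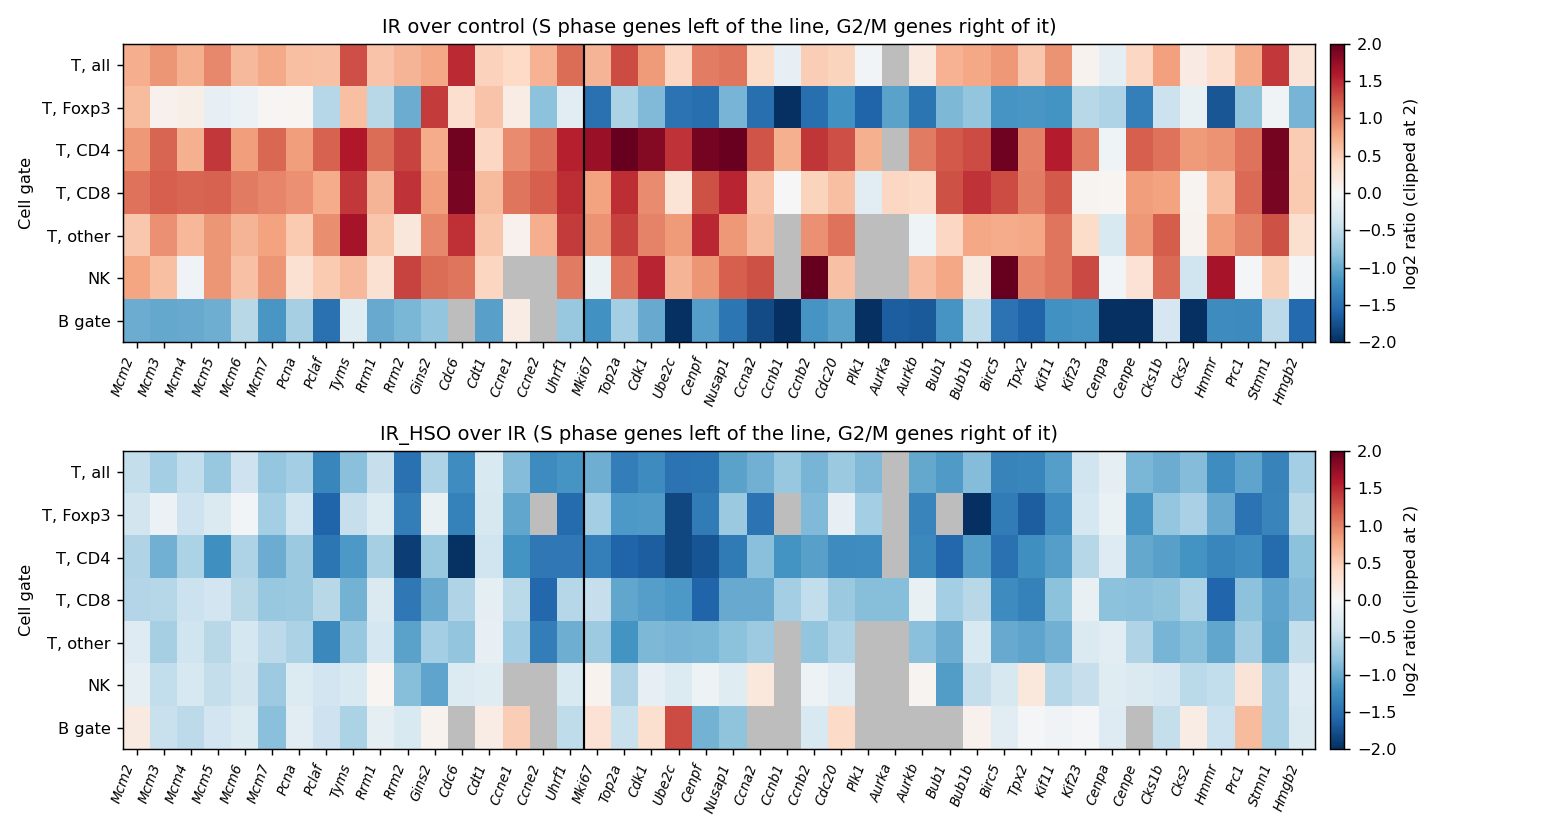
log2 ratio of each member for IR over control (top) and IR_HSO over IR (bottom) in 7 gates, clipped at 2, with genes that were not measured in grey. IR over control is mostly positive in T, CD4, CD8, other T and NK cells and mostly negative for G2/M genes in Foxp3 cells and the B gate, and IR_HSO over IR is mostly negative in the T cell gates.

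The NK gate held 337 control, 1531 IR and 1046 IR_HSO cells. Of these, 56 control, 25 IR and 9 IR_HSO cells also met the B gate. No NK values without them were computed, and their part in the NK results was not tested. All 6 NK cell markers were present in each library, at a summed 12850, 13100 and 9882 CPM. In the NK gate B cell markers stood at 1377, 98.7 and 50.2 CPM, erythroid markers at 4383, 243 and 320 CPM, plasma cell markers at 216, 2930 and 1293 CPM, and pancreatic markers at 0 (all 12 at 0), 4096 and 8059 CPM, and the part of these markers in the results was not tested. The S phase genes of the NK cells summed to 460, 672 and 516 CPM and their G2/M genes to 905, 1103 and 896 CPM. In IR 9 of 15 S phase and 16 of 24 G2/M genes were at least 1.5-fold higher than in control, against 10.7% of all genes, with medians of 0.64 and 0.83. Of those called higher, Cdc6, Cdk1, Ccna2, Ccnb2, Cdc20, Aurkb, Bub1 and Hmmr were under 5 CPM in control. They were measured only through IR and so could not have been called lower. The G2/M median was 0.22 over the 10 genes of at least 20 CPM, 0.28 in thinned cells, and 0.43 as UMIs per cell, and the S phase median was 0.20 as UMIs per cell. Over all genes the median was -0.05 at 20 CPM or more, 0.05 in thinned cells and -0.51 as UMIs per cell. Many control counts were small. Birc5, the survivin subunit of the chromosomal passenger complex, stood at 5.12 CPM (8 UMIs), 26.96 CPM (138) and 21.3 CPM (95), a ratio of 5.27 [2.60, 12.5]. Cdk1 stood at 3.84 CPM (6 UMIs), 12.9 CPM (66) and 11.4 CPM (51), a ratio of 3.36 [1.47, 9.49]. Those control levels rested on under 10 UMIs each. Ccnb2, a cyclin B, had 2, 47 and 38 UMIs (1.28, 9.18 and 8.52 CPM), a ratio of 7.18 [1.88, 61.0], and Hmmr had 4, 52 and 31 UMIs (2.56, 10.2 and 6.95 CPM), a ratio of 3.97 [1.46, 15.1]. Those 4 had the highest ratios, while Cks2, Mki67, Mcm4 and Cenpa had the lowest, at 0.76, 0.91, 0.95 and 0.96, all with intervals that spanned 1. Cks2 stood at 40.3, 30.5 and 20.6 CPM, Mcm4 at 64.6, 61.4 and 48.7 CPM, and Cenpa at 39.0, 37.5 and 31.4 CPM. Set against control, Ccnb2, Birc5, Ccna2 and Cdk1 had the highest ratios of IR_HSO, at log2 2.06, 1.87, 1.49 and 1.36, and Cks2, Mcm4, Cenpa and Bub1b, a spindle checkpoint protein at 5.76, 6.64 and 4.49 CPM, the lowest, at -0.93, -0.40, -0.30 and -0.30.

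Between IR_HSO and IR few members of the NK cells passed 1.5-fold. Of 15 S phase genes 3 were lower, and of 24 G2/M genes 3, against 5.5% of all genes, with medians of -0.33 and -0.26. Bub1, a spindle checkpoint kinase, stood at 2.56, 5.08 and 1.79 CPM (4, 26 and 8 UMIs), a ratio of 0.35 [0.14, 0.80] for IR_HSO over IR. Gins2, a helicase partner, stood at 10.2, 23.5 and 10.8 CPM, a ratio of 0.46 [0.32, 0.65]. These 2 genes had control and IR_HSO close together, below IR. Rrm2 stood at 5.76, 16.2 and 8.52 CPM, a ratio of 0.53 [0.35, 0.78], and Mcm7 at 30.7, 57.6 and 34.3 CPM, a ratio of 0.60 [0.49, 0.73]. Mki67, Tpx2, Ccna2 and Prc1 had ratios of 1.06, 1.17, 1.18 and 1.204, with intervals that spanned 1. Tpx2, a spindle assembly factor, stood at 5.76, 12.3 and 14.4 CPM, Ccna2, cyclin A2, at 2.56, 7.62 and 8.97 CPM, and Prc1, a spindle midzone protein, at 20.5, 19.9 and 24 CPM. Mki67 stood at 84.4, 77.0 and 81.2 CPM in the 3 libraries. The control value was 132 UMIs from 9 cells, and the share of NK cells with an Mki67 UMI was 2.67%, 5.49% and 4.21%, highest in IR. In control 2 NK cells with 10 or more of the 23 G2/M genes held 66.3% of the UMIs of those genes.

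The markers of the B gate differed widely between libraries. It held 4719 control, 444 IR and 321 IR_HSO cells, with B cell markers at 7586, 1218 and 826 CPM and plasma cell markers at 2341, 35960 and 31350 CPM, and median UMI numbers of 3823, 9223 and 9898. In IR 12 of 15 S phase and 24 of 27 G2/M genes were lower than in control, but so were 76.2% of all genes, whose median log2 ratio was -1.06. The medians were -0.98 for S phase and -1.28 for G2/M genes, and relative to the median of all genes they were 0.08 and -0.22, so that the direction of the S phase genes turned with the scaling. Plk1 stood at 8.49, 0.719 and 2.45 CPM (201, 4 and 10 UMIs), a ratio of 0.085 [0.023, 0.22] for IR over control, and Ube2c at 40.3, 8.26 and 21.8 CPM. Cenpe, a kinetochore motor, at 22.6, 4.49 and 3.68 CPM, and Ccnb1, at 9.93, 1.62 and 3.92 CPM, also had low ratios, at 0.20 and 0.16. These 4 genes had the lowest log2 ratios. Ccne1, Tyms, Cks1b and Bub1b had the highest log2 ratios, with folds of 1.13, 0.83, 0.79 and 0.67. Ccne1 stood at 7.48, 8.44 and 12.3 CPM, Tyms at 12.97, 10.8 and 6.62 CPM, Cks1b at 28.5, 22.5 and 15.9 CPM, and Bub1b at 11.2, 7.54 and 8.09 CPM. Cenpa stood at 113, 26.9 and 22.3 CPM. Set against control, Cenpe, Cenpa, Nusap1 and Cenpf had the lowest ratios of IR_HSO, at log2 -2.34, -2.29, -2.24 and -2.05, and Ccne1, Bub1b, Prc1 and Cdc20 the highest, at 0.65, -0.42, -0.65 and -0.68. Between IR_HSO and IR 2 of 15 S phase genes were lower, 3 of 20 G2/M genes were lower and 2 were higher, against 7.62% lower and 6.48% higher over all genes. Ube2c had a ratio of 2.64 [1.83, 3.86] and Prc1, at 24.1, 9.34 and 14.95 CPM, 1.60 [1.09, 2.36], while Cenpf, Nusap1, Mcm7 and Stmn1 had 0.49, 0.51, 0.53 and 0.61. Cenpf stood at 34.6, 15.6 and 7.60 CPM, Nusap1, a spindle-associated protein, at 18.8, 6.29 and 3.19 CPM, Mcm7 at 36.2, 15.6 and 8.34 CPM, and Stmn1 at 90.4, 62.5 and 38.3 CPM. These 4 were lowest in IR_HSO. Ccne1 and Cdc20, an activator of the anaphase-promoting complex at 11.2, 4.85 and 6.62 CPM, had ratios of 1.45 and 1.37, with intervals that spanned 1.

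Other genes of the cycle in T cells placed the members among their neighbours. Of 36 measured other replication genes 18 were above control by 1.5-fold or more in IR and none lower, and of 42 other mitosis genes 16 were higher and 1 lower, with medians of 0.58 and 0.50, against 10.5% of all genes higher and 3.86% lower. In IR_HSO 14 of these 36 and 27 of these 42 were lower than in IR and none higher, with medians of -0.51 and -0.73, against 4.73% of all genes lower. Pole, the leading-strand polymerase, and Cdc45, a helicase partner, had the highest replication ratios of IR over control, at log2 1.31 and 1.26, and Dbf4 and Rfc1 the lowest, at -0.25 and -0.15. Asf1b and Lig1 were the lowest of IR_HSO over IR, at -1.30 and -1.15, and Orc5 and Rpa2 the highest, at 0.26 and 0.11. Among mitosis genes Spc25 and Ckap2 were highest for IR over control, at 1.202 and 1.16, and Ube2s and Smc4 lowest, at -0.92 and -0.58. Spc24 and Cdca8 were lowest for IR_HSO over IR, at -1.37 and -1.18, and Ube2s and Fzr1 highest, at 0.34 and 0.28.

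The transcription factors known to drive these genes differed among themselves. E2f1 stood at 3.41 CPM in control, 10.6 CPM in IR and 4.73 CPM in IR_HSO, 3.11-fold [2.43, 4.02] above control in IR, and E2f2 at 13.7, 17.8 and 11.6 CPM. Foxm1, an activator of mitotic genes, stood at 3.45, 5.10 and 3.03 CPM, and Mybl2, its partner in S phase, was not measured, at 2.36, 3.50 and 1.997 CPM. Of 17 measured E2F, RB and DREAM genes 5 were above control in IR, against 10.5% of all genes, and 4 were lower in IR_HSO than in IR, against 4.73%, E2f1 and E2f8 lowest at log2 -1.02 and -0.996. Rbl2, the p130 repressor of resting cells, was higher in both irradiated libraries, at 67.4, 152 and 192 CPM. E2f5 and E2f4 had the lowest ratios of IR over control, at -0.38 and -0.04, and E2f5 the highest of IR_HSO over IR, at 0.37.

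Of the brakes of the cycle some were higher in IR and others were not. Cdkn1a stood at 1.70, 208 and 147 CPM, 122-fold [89.3, 172] above control in IR, and 2 of 4 measured inhibitors of cyclin-dependent kinases were higher, against 10.5% of all genes. The other was Cdkn2c, at a log2 ratio of 0.88. Cdkn2d stood at 84.7, 111 and 97.6 CPM, and Cdkn1b, the p27 inhibitor of resting lymphocytes, at 253, 194 and 173 CPM, so that the inhibitors did not move together. No inhibitor differed by 1.5-fold between IR_HSO and IR. Of 17 measured checkpoint genes 6 were above control in IR, against 10.5% of all genes, and 1, Cdc25b, was lower at -0.65, against 3.86%, with Gtse1 and Gadd45g highest at 2.25 and 2.09 and Gadd45a at -0.17. Ccng1, a p53 target, stood at 53.1, 177 and 175 CPM. In IR_HSO 3 of the 17 were lower than in IR, against 4.73%, with Chek1 and Chek2 at -1.16 and -0.73 the lowest and Atr and Ccng2 at 0.22 and 0.17 the highest.

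Of the 9 measured G1 cyclins and kinases 3 were above control in IR, against 10.5% of all genes, and 1 was lower, against 3.86%. Ccnd2, a D cyclin of lymphocytes, stood at 429, 815 and 618 CPM, and Ccnd3 at 214, 329 and 330 CPM. Cdk6, their kinase, stood at 30.5, 142 and 163 CPM, 4.65-fold [4.30, 5.04] above control in IR. Ccnd1 was the lowest, at log2 -3.11, and Myc was next at -0.08. None of 8 measured differed by 1.5-fold between IR_HSO and IR, where Cdk6 and Cdk7 were highest at 0.20 and 0.11 and Ccnd2 and Cdk4 lowest at -0.40 and -0.38. Cdk6, Ccnd3, Rbl2 and Ccng1 thus differed between IR_HSO and IR by log2 0.20, 0.003, 0.34 and -0.02.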

How the data were processed

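Spleen cells were measured in 3 libraries of 10x Genomics single-cell RNA sequencing, 1 for each of the groups control, IR and IR_HSO. The deposited matrices hold raw UMI counts of genes in cells. Per the file headers they come from Cell Ranger 7.0.1. GRCm39 is the build named in the submitters' processing notes. Annotation and settings are not given in the sources used here. Members were matched to the symbol column, all 44 were found, and counts were summed per library and gate.

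Levels (CPM) are UMIs of a gene scaled to a fixed total of UMIs in the gate. Ratios are log2((CPM + 1)/(CPM + 1)), folds are ratios of CPM, and intervals are exact at 95% (Poisson for levels, conditional binomial for folds, Clopper-Pearson for shares). A list's median is taken over its measured genes. A gene called higher or lower passed 1.5-fold, which is a size and not a test, and no p-value was computed. Cells in both the T and the B gate are counted in both, no doublet caller was run, and values without them are given. Cells in both the NK and the B gate are also counted in both, and no NK values without them were computed. The ratio script was checked on simulated counts. Cells were thinned with a fixed seed of 1.

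The members, the other gene lists and the tests were chosen with earlier results of these data known. Named are Mki67, Top2a, Cdk1, Pcna, Mcm2 to Mcm7, Tyms, Stmn1 and Hmgb2 in T cells, the 4 highest and 4 lowest measured members per comparison and gate, and of the other lists the 2 highest and 2 lowest in T cells plus 12 fixed genes. Further genes named were chosen after their values were seen. Alternatives tried were other pseudocounts, filters, scalings, cell filters, gates and thinning depths. Python 3.11.15, numpy, scipy and pandas were used.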

Additional observations from a re-analysis of the deposited data

Results flagged for a closer look

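The G2/M genes of Foxp3 T cells had a median log2 ratio of -1.16 for IR over control, while those of CD4, CD8 and other T cells had medians of 1.245, 0.80 and 0.86. These opposite directions under the same contrast were not tested. Without cells in both gates the Foxp3 median was -0.06, and where the larger of the Cd3 and Cd79 sums decided it was -1.23.

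The S phase genes of the B gate had a median of -0.98 for IR over control, while those of T and NK cells had 0.71 and 0.64. The G2/M genes of NK cells had a median of 0.83, while those of the B gate had -1.28. Neither difference was tested. The median over all genes was -1.06 in the B gate, where 76.2% of genes were lower, beside 0.10 in T and -0.05 in NK cells. Relative to the median of all genes, the B gate medians were 0.08 for S phase and -0.22 for G2/M genes. Plasma cell markers of the B gate stood at 2341 CPM in control and 35960 CPM in IR, and their part in the result was not tested.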

How the results depend on the processing

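Of 232 alternative medians 12 had the other sign, all in the NK cells or the B gate. The 232 include settings that leave the NK gate unchanged, so that its medians could not differ. These were the settings without cells in both gates, with the larger of Cd3 and Cd79, and with gates of 4 UMIs. All 68 alternative medians in T cells kept their sign, from 0.24 to 1.17 (S phase) and 0.04 to 1.64 (G2/M) for IR over control, and from -0.79 to -0.56 and -1.10 to -0.47 for IR_HSO over IR. For IR over control in T cells the S phase median was 0.61 with a pseudocount of 5 CPM, 0.61 centred on all genes, 0.24 as UMIs per cell, 0.92 without cells in both gates, 1.17 without cells over 20000 UMIs, 0.92 with gates of 4 UMIs and 0.90 without cells of 10 or more G2/M genes. The G2/M median was 0.038 per cell, 1.17 thinned, 1.22 without cells in both gates, 1.64 without cells over 20000 UMIs and 0.79 with gates of 4 UMIs. For IR_HSO over IR the medians were -0.56 (S phase) and -0.47 (G2/M) without cells of 10 or more G2/M genes, and the G2/M median was -0.82 with a pseudocount of 5 CPM. Per cell the NK medians of IR_HSO over IR changed sign, to 0.020 and 0.087, and those of IR over control were 0.20 and 0.43. Over all NK genes the per-cell medians were 0.34 for IR_HSO over IR and -0.51 for IR over control. For IR over control the per-cell medians over all genes were -0.38 in T cells and 0.23 in the B gate. The NK G2/M median of IR over control was 0.22 with a minimum of 20 CPM and 0.28 thinned. In the B gate the S phase median of IR over control changed sign when centred (0.084), per cell (0.30) and without cells over 20000 UMIs (0.04), and was -0.032 without immunoglobulin and other abundant genes, -0.018 thinned, -1.73 without cells in both gates, -1.58 where the larger of Cd3 and Cd79 decided and -1.45 with gates of 4 UMIs. The G2/M medians under these 8 settings were -0.22, -0.15, -0.63, -0.50, -0.33, -2.37, -2.12 and -1.83. For IR_HSO over IR, reported at -0.31 and -0.13, they changed sign to 0.56 and 0.97 in B gate cells with an Ms4a1 UMI, to 0.25 and 0.71 without cells in both gates, to 0.14 and 0.45 where the larger of Cd3 and Cd79 decided, and to 0.28 for G2/M genes with gates of 4 UMIs. Without cells in both gates IR over control was 0.75 and -0.061 in Foxp3 cells and 1.97 for G2/M genes in CD8 cells, while it was 0.02, -1.23 and 0.92 where the larger of Cd3 and Cd79 decided. The thinned shares of control, IR and IR_HSO T cells moved with the limit, for S phase genes to 3.79%, 10.4% and 5.67% at 2 genes, 0.404%, 2.33% and 0.697% at 4 genes, and 3.09%, 9.72% and 4.31% at 2000 UMIs. For G2/M genes they moved to 1.64%, 3.87% and 1.77% at 2 genes, to 2.21% in IR at 4 genes, and to 3.83% in IR and 1.60% in IR_HSO at 2000 UMIs. The settings without cells in both gates for T cell subsets, with Ms4a1 and without cells of 10 or more G2/M genes were chosen after seeing the data. The cause of these moves was not tested. No paired analysis was possible because each group has 1 library. With 1 library per group, a difference between libraries and one between treatments cannot be told apart.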

Other observations

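Cells in neither the T, the NK nor the B gate were 973 in control, 2842 in IR and 2361 in IR_HSO. Their S phase genes summed to 600 CPM in control, 576 CPM in IR and 343 CPM in IR_HSO, and their G2/M genes to 1433, 865 and 647 CPM. In them erythroid markers stood at 62720, 536 and 550 CPM, pancreatic markers at 0.504, 25120 and 52700 CPM, myeloid markers at 10630, 2956 and 3955 CPM, and NK cell markers at 597, 5397 and 3138 CPM. The part of these markers in the sums was not tested. Among T cells with both Mki67 and Top2a, a group chosen after the values were seen that here includes the 23, 16 and 6 cells also in the B gate, Cdkn1a had 12 UMIs in 57 control cells, 483 in 360 IR cells and 204 in 127 IR_HSO cells. Its level there was 9.44, 144 and 165 CPM, a ratio of 15.3 [8.65, 29.7] for IR over control and 1.14 [0.967, 1.35] for IR_HSO over IR.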
